A study of Mus musculus with 8 samples.

Results

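Of 41999 Agilent mouse array probes, 293 had a higher footpad-to-reference ratio in every Foxc1 conditional knockout (cKO) footpad than in any wild-type footpad. Each genotype had 4 footpad samples, and the 4 cKO values of each of these probes spread less than a set limit. A probe belonged to this set if its spot was well above background (the scanner software's own flag) in the footpad channel on all 4 cKO arrays, if its lowest cKO value lay above its highest wild-type value, if the group means differed by at least 0.176 on the log10 scale, which is 1.5-fold, and if the standard deviation (SD) of the 4 cKO values stayed below 0.08, a factor of 1.20. The values used were the authors' deposited log10 values. The members were thus chosen by the cKO and wild-type values and by the difference and spread of these, so every difference between the genotypes given for them is a description and carries no test. The set is called the evenly higher probes below, a name that describes the ratio to the reference RNA; how even the footpad signal itself was is given further on.

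Foxc1 is a forkhead transcription factor that binds DNA in the nucleus, and it is known for roles in the eye, the skeleton, blood vessels and skin appendages. Mouse footpads are hairless skin and the place where the mouse carries its eccrine sweat glands, each made of a coiled secretory part and a duct that opens through the cornified surface. A punch of footpad also holds epidermis, dermal fibroblasts, vessels, nerve, fat and immune cells, so a transcript can be higher in it because cells hold more of it or because more of the cells that hold it are present; these cannot be told apart in bulk RNA.

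The wild-type group (genotype "wildtype") and the cKO group (genotype "Foxc1 KO", named cKO in the sample titles) were both of the C57BL6 background, and each held 4 footpad samples taken by punch biopsy and frozen before RNA extraction. The driver of the conditional deletion, the allele, the age and the sex are not given in the labels. On each array Cy3 dye carried footpad RNA and Cy5 dye a universal mouse reference RNA, without dye swap. The labels number replicates 1 to 4 but describe them as 1 of 2 or 2 of 2, so the number of separate animals per group is not known. The spread within a group may be partly technical. In this report n = 4 per group counts arrays, and a footpad stands for the sample on 1 array. Replicates 1 and 2 of both genotypes shared 1 slide and replicates 3 and 4 the other; wild-type samples took the first positions and cKO samples the last ones of each slide, with the result that genotype and position cannot be told apart. Probes are reported by identifier: of 41999 identifiers, 0 were found among the 49997 entries of the gene table given for the mouse, and gene names, chromosomal positions, Foxc1 itself and footpad marker genes were not analysed here.

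Each probe is a designed sequence of 60 bases. The first sequences shown belong to 2 pairs of evenly higher probes that overlap each other, with the shared stretch in capitals; they show that different probes to one sequence entered the set together.
Z00001969-1: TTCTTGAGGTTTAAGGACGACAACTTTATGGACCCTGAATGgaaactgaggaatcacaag
Z00060840-1: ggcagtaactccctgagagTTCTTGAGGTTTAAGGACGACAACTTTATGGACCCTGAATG
Z00049101-1: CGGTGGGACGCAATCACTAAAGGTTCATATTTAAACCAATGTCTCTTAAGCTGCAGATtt
Z00054196-1: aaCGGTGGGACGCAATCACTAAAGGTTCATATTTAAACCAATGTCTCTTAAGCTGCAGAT

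The next sequences are those of the probes with the largest differences between the genotypes, shown because the values below turn on them. For Z00026395-1 and Z00071540-1 the 30 bases around the letters AATAAA, in capitals, are given.
Z00009839-1: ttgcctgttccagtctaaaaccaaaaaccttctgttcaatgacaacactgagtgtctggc
Z00026395-1: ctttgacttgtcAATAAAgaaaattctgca
Z00071540-1: cttctctttcccAATAAAatgctggcatgg
Z00062579-1: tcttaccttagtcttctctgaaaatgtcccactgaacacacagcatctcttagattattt
Z00070058-1: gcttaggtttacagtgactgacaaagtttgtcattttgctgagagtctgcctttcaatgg
Z00007723-1: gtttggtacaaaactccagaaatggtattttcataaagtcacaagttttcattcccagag
Z00007161-1: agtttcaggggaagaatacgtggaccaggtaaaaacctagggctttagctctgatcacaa
Z00048558-1: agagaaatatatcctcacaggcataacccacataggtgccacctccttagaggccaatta
Z00048455-1: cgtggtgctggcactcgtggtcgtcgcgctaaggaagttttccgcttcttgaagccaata

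The conditions removed probes step by step. Of the 41999 probes, 28948 were well above background on all 4 cKO arrays, or 68.9%. Of these, 1865 had no overlap between the genotypes with cKO higher, which is 6.44% of the probes detected on the cKO arrays. The mean difference left 702, and the SD limit split these into the 293 evenly higher probes, 41.7%, and 409 probes whose cKO values spread more. The plot of difference against spread shows that most of the evenly higher probes lay close to the difference limit: 62 of the 293 differed at least 2-fold in the deposited values, 10 at least 4-fold and 5 at least 8-fold.

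**Figure D1:**
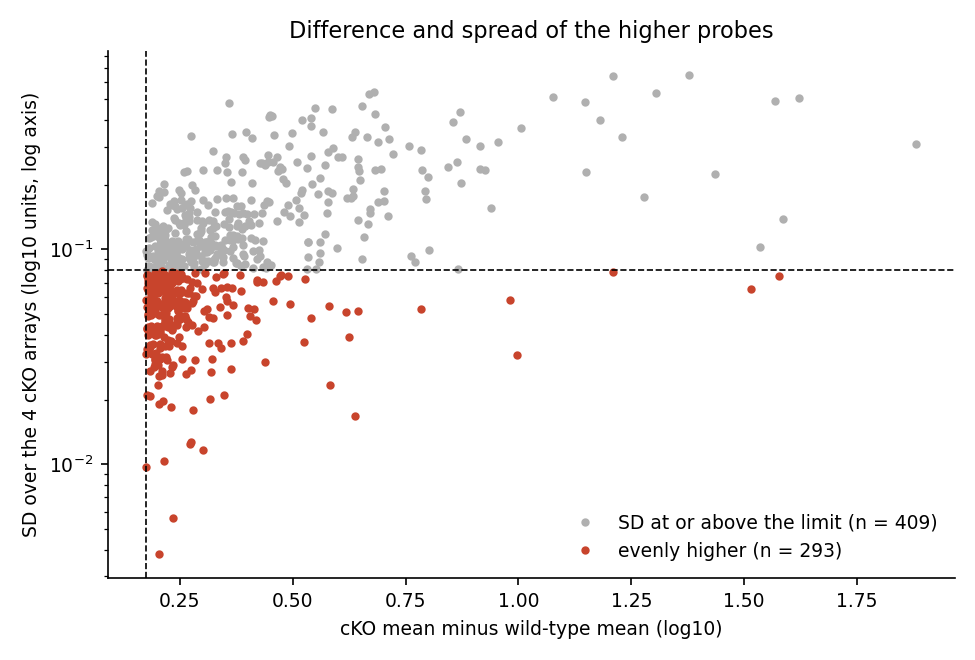
The cKO mean minus the wild-type mean (horizontal, log10) against the SD over the 4 cKO arrays (vertical, log10 units on a log axis) for 702 probes without overlap between the genotypes; red points are the 293 evenly higher probes, grey points the 409 whose SD reached the limit, and the dashed lines are the limits of 0.176 and 0.08. The red points crowd at the left limit, and 5 of them exceed an 8-fold difference.

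The limits cut through a continuous cloud. Just inside the difference limit stood Z00073924-1, Z00064768-1 and Z00075326-1, with differences of 0.176 for the first and second and 0.1764 for the third. Just outside stood Z00023990-1, Z00042197-1 and Z00034178-1, at 0.17598, 0.17545 and 0.17543. The SD limit was as fine: Z00048149-1 at 0.0793, Z00032988-1 at 0.0789 and Z00071540-1 at 0.0787 were inside, and Z00023680-1 at 0.0801 and Z00026394-1 at 0.0802 were outside, with Z00025515-1 next.

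Of the 11 probes described here from among the largest differences, 4 were well above background on every wild-type array, so that both genotypes have a measured level. Z00071540-1 had deposited values of 2.34, 2.42, 2.40 and 2.38 in wild-type replicates 1 to 4 and 3.54, 3.63, 3.52 and 3.69 in cKO replicates 1 to 4. This is the widest separation among the 218 evenly higher probes measured in all wild-type footpads. The means differed 16.2-fold, with an empty span of 1.098 log10 units between the genotypes and a cKO SD close to the limit. In Cy3 alone the cKO SD of Z00071540-1 was 0.142, over the limit, beside 0.190 in Cy5. After a different processing of the scanner values (normexp background correction and loess normalization), its cKO minus wild-type difference was 3.46 ± 0.09 on the log2 scale (limma standard error, n = 4 per group).

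Z00007723-1 combined a large difference with a small spread. Its wild-type values were 2.93, 2.91, 2.98 and 3.02, and its cKO values were 3.59, 3.61, 3.62 and 3.58. The 4 cKO values lay within an SD of 0.0168, below the wild-type SD of 0.0487, and the means differed 4.34-fold, or 3.96-fold after normexp and loess.

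Z00007161-1 had wild-type values of 2.25, 2.35, 2.05 and 2.06 against cKO values of 2.77, 2.84, 2.76 and 2.83. The wild-type replicates of slide 1 were higher than those of slide 2, whereas the cKO values did not divide by slide; the means differed 4.21-fold, and 2.73-fold after normexp and loess. Z00048455-1 had wild-type values of 3.26, 3.14, 3.61 and 3.66 and cKO values of 3.99, 4.03, 3.97 and 4.00. Its wild-type spread, an SD of 0.259, was over the limit that its cKO values met with an SD of 0.0233. In Cy3 alone its cKO SD was 0.135, over the limit. Here slide 2 was the higher one in wild type. The deposited difference was 3.82-fold, and the difference after normexp and loess was larger, 2.37 ± 0.39 on the log2 scale (limma standard error, n = 4 per group), or 5.19-fold.

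**Figure D2:**
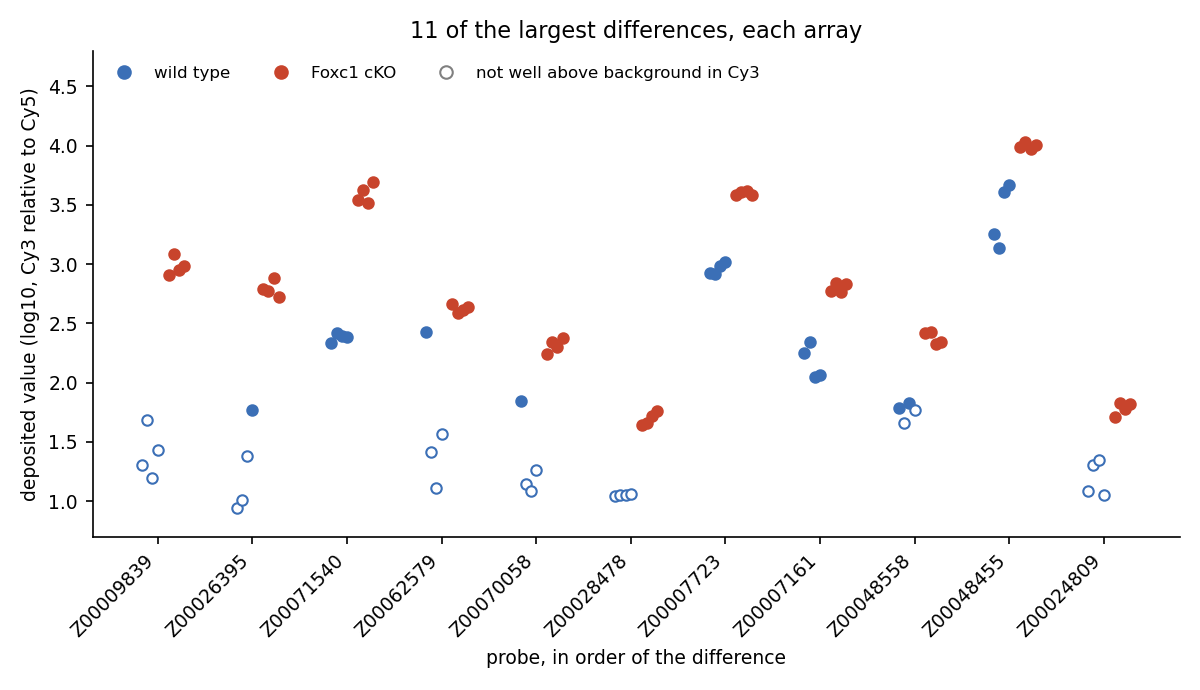
Deposited log10 values (vertical axis, Cy3 relative to Cy5) of 11 probes from among the largest differences, in order of the difference; each point is 1 array, blue for 4 wild-type and red for 4 cKO footpads, and open points were not well above background in Cy3. No red point lies at or below a blue point of its probe, and 3 of the 11 probes have only open wild-type points.

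For 4 of the 11, only some wild-type arrays gave a signal well above background. Z00026395-1 had wild-type values of 0.942, 1.01, 1.38 and 1.77, of which only replicate 4 was well above background, and cKO values of 2.79, 2.77, 2.88 and 2.72. The deposited means differed 32.7-fold, but the reference channel was not well above background on any of the 8 arrays for this probe, and normexp and loess gave 4.24-fold. Both processings placed all cKO arrays on the higher side, while the size depended on how signals near background were treated.

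Z00062579-1 had wild-type values of 2.43, 1.41, 1.11 and 1.56 and cKO values of 2.66, 2.59, 2.61 and 2.63. Wild-type replicate 1 was the only wild-type array well above background and lay within 0.16 log10 units of the lowest cKO array, far from the other wild-type arrays. Z00070058-1 had wild-type values of 1.85, 1.14, 1.09 and 1.26 and cKO values of 2.24, 2.34, 2.30 and 2.37, again with wild-type replicate 1 alone well above background.

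Z00048558-1 had wild-type values of 1.78, 1.66, 1.83 and 1.77, with 2 arrays well above background, and cKO values of 2.42, 2.43, 2.32 and 2.34. After normexp and loess Z00062579-1, Z00070058-1 and Z00048558-1 were higher in cKO by 3.30-fold, 2.14-fold and 1.96-fold, in that order, against 9.92-fold, 9.56-fold and 4.15-fold in the deposited values. Without wild-type replicate 1 the deposited difference of Z00062579-1 went from 0.997 to 1.26 log10 units.

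In the other 3 of the 11, no wild-type spot was well above background, so only a lower bound of the fold can be given. The bound is one of the footpad channel, Cy3, and not of the ratio to Cy5: it sets the mean normalized cKO signal against, on each wild-type array, the higher of the dimmest signal well above background and the probe's own signal. Z00009839-1, first of the whole set, had wild-type values of 1.30, 1.69, 1.20 and 1.43 and cKO values of 2.91, 3.08, 2.95 and 2.98, and was at least 12.1-fold higher in cKO in Cy3, with measured mean log2 Cy3 signals of 6.11 in wild type and 9.91 in cKO. Its ratio to Cy5, which was itself higher on the cKO arrays, differed 11.2-fold after normexp and loess. On the log2 scale this difference was 3.49 ± 0.34 (limma standard error, n = 4 per group). Z00028478-1 had wild-type values of 1.04, 1.05, 1.06 and 1.06 and cKO values of 1.64, 1.66, 1.72 and 1.76, yet the bound was only at least 1.14-fold. Z00024809-1 had wild-type values of 1.09, 1.31, 1.35 and 1.05 and cKO values of 1.71, 1.82, 1.77 and 1.82, with a bound of at least 1.18-fold.

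The most even probes were not those with the largest differences. Z00072422-1 had cKO values within an SD of 0.00382, from 1.787 to 1.796, against wild-type values of 1.77, 1.45, 1.76 and 1.37, with only 1 wild-type array well above background. Its highest wild-type value lay 0.0147 log10 units below its lowest cKO value. After normexp and loess the difference was 1.02-fold, and in Cy3 alone the genotypes overlapped and the cKO SD was 0.0876, over the limit. In Z00034859-1 the cKO values were 3.61, 3.61, 3.61 and 3.62 and the wild-type values 3.37, 3.32, 3.56 and 3.26; wild-type replicate 3 stood nearest to the cKO arrays, and the means differed 1.71-fold.

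Z00064768-1 (cKO 3.44, 3.45, 3.46 and 3.47; wild type 3.27, 3.35, 3.25 and 3.25) and Z00071890-1 (cKO 3.53, 3.52, 3.51 and 3.53; wild type 3.42, 3.29, 3.25 and 3.26) each had 1 wild-type replicate closer to the cKO arrays than the rest. The evenness of Z00064768-1 was one of the ratio: in Cy3 alone its cKO SD was 0.182, beside 0.190 in Cy5, and the genotypes overlapped. Z00041417-1 had cKO values of 2.99, 2.97, 2.99 and 2.96 and wild-type values of 2.72, 2.81, 2.67 and 2.62, a 1.87-fold difference. Z00028670-1, the last of the 6 probes with the smallest SD, is described with the separate dye channels below.

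Over the whole set, the level of detection in wild type divided the probes. Of the 293, 218 were well above background on all 4 wild-type arrays (74.4%, against 91.3% of all probes detected on the 4 cKO arrays), 35 on 1 to 3 and 40 on 0 wild-type arrays. On the wild-type arrays between 66.0% and 68.3% of all probes were well above background in Cy3, and on the cKO arrays between 71.3% and 76.2%; the part of this in the detection of the set was not tested. The 218 probes ranged from 1.5-fold to 16.2-fold in the deposited values, with a median of 1.65-fold. After normexp and loess their median was 1.54-fold, and all 218 were higher in cKO.

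The probes that were dim in wild type behaved differently under the 2 processings. The 35 probes detected on 1 to 3 wild-type arrays had a median of 1.69-fold in the deposited values and 1.14-fold after normexp and loess. The 40 probes detected on no wild-type array had a median measured ratio of 1.92-fold in the deposited values and of 1.101-fold after normexp and loess, and the median of their lower bounds in Cy3 was 1.09-fold. With the normexp offset included, only Z00009839-1 had a Cy3 bound over 1.5-fold. The next, Z00017341-1, was at least 1.23-fold higher in Cy3. Over all 293 probes, 292 stayed above 1 after normexp and loess, 136 reached 1.5-fold and 24 reached 2-fold.

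**Figure D3:**
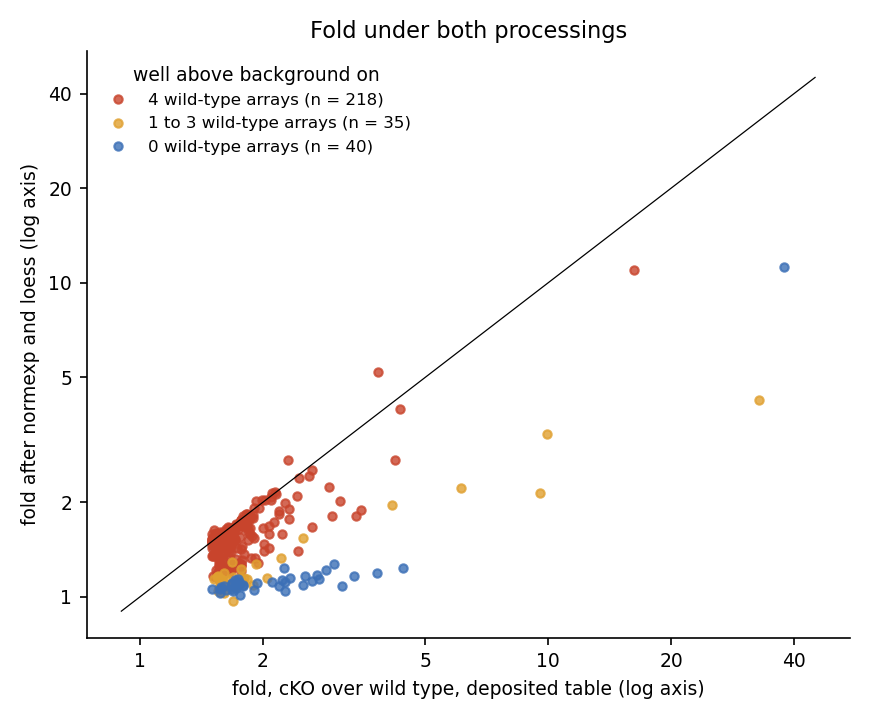
Ratio of cKO over wild type in the deposited values (horizontal, log axis) against that after normexp and loess (vertical, log axis) for the 293 probes; colours give the number of wild-type arrays well above background, and the line marks equal values. Red points (218 probes) lie near the line, while most blue points (40 probes, whose ratios are not measured levels in wild type) lie just above 1 on the vertical axis.

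As a background for these differences, limma across all 29878 tested probes called 677 higher in cKO at a Benjamini-Hochberg false discovery rate of 0.05, which is 2.27%. Of the evenly higher probes 194 were among them, or 66.2%; since the rule used the same contrast, nothing is read from this share. By detection in wild type, the calls fell on 180 of the 218, 8 of the 35 and 6 of the 40 probes. The median cKO minus wild-type difference was 0.57 on the log2 scale over the 293 probes and -0.0047 over all tested probes. Without wild-type replicate 3 the count among the evenly higher probes was 125, and the count over all probes was 301, 375, 313 and 401 without wild-type replicates 1, 2, 3 and 4 in turn and 387 and 419 without cKO replicates 2 and 4. The rule applied to values after normexp and loess kept 181 probes, 134 of them shared with the 293.

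The SD limit acted on the cKO arrays alone, and the wild-type arrays show what it did not choose. The median SD over the 4 arrays was 0.0690 log10 units in wild type and 0.0543 in cKO. Over all probes detected on the cKO arrays these medians were smaller, 0.0397 and 0.0389, so the members were even by the limit of the rule and not in comparison with a typical probe. The wild-type SD was the larger one for 188 of the 293 probes (64.2%). The share was 51.5% of all probes detected on the cKO arrays and 56.3% of those whose cKO SD met the limit, and among the 218 members measured in every wild-type footpad it was 54.6%, below the latter. In the wild-type group 116 of the 293 probes (39.6%) exceeded the SD limit that their cKO values had to meet, against 19.3% of all probes detected on the cKO arrays and 11.2% of those whose cKO SD met the limit. After normexp and loess the median SDs were 0.12 in wild type and 0.13 in cKO on the log2 scale.

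Although the cKO values of each probe stayed within the SD limit, the medians over the set differed among the 4 cKO footpads. As a fold over the wild-type mean, the median over the 293 probes was 1.67 in cKO replicate 1, 1.83 in replicate 2, 1.59 in replicate 3 and 1.79 in replicate 4; the wild-type arrays lay at 1.02, 1.02, 1.01 and 0.976. Replicate 2 was above replicate 1 for 70.0% of the probes and replicate 4 above replicate 3 for 76.5%, against 48.2% and 49.1% of all probes detected on the cKO arrays. Replicates 2 and 4 were both above replicates 1 and 3 for 141 probes (48.1%), against 19.6% of the detected probes, and the reverse held for 13; the other probes, Z00007723-1 among them, had neither order.

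The 409 probes outside the SD limit showed this order more widely. Replicates 2 and 4 were both above replicates 1 and 3 for 65.0% of them, and replicate 2 was the highest cKO array for 56.7%, against 44.4% of the evenly higher probes and 19.4% of the detected probes. Replicates 2 and 4 occupied the last position of their slides, so the order of the replicates and the position on the slide cannot be told apart. These shares are descriptions over probes that share the same 4 arrays.

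**Figure D4:**
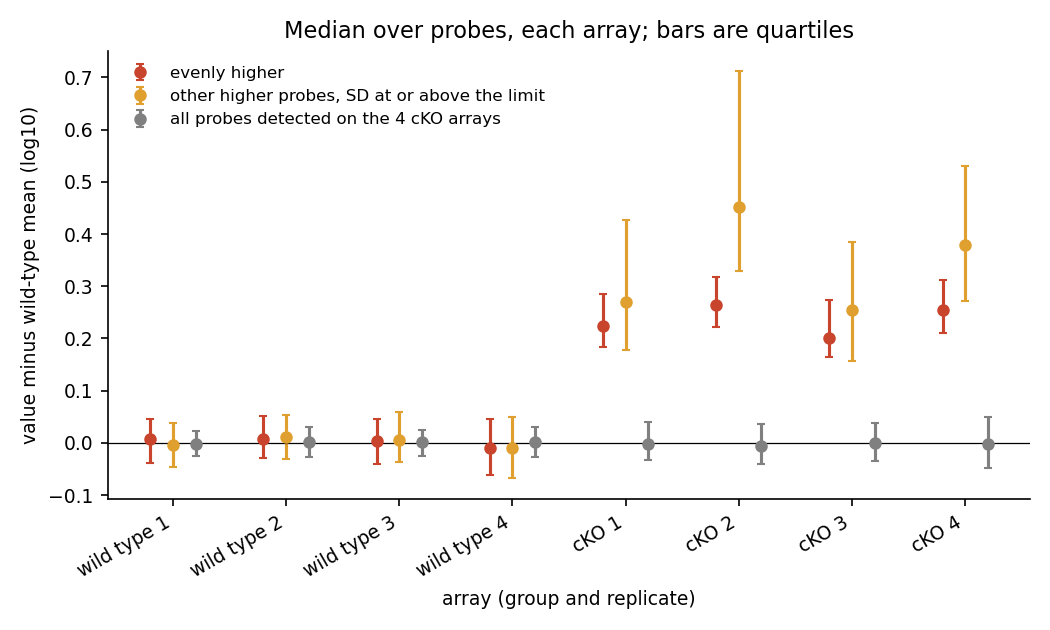
Median deposited value minus the probe's wild-type mean (vertical, log10) on each of the 8 arrays, with bars from the lower to the upper quartile over probes; red is the 293 evenly higher probes, yellow the 409 higher probes over the SD limit and grey all 28948 probes detected on the cKO arrays. Red and yellow medians are higher in cKO replicates 2 and 4 than in 1 and 3, and the grey medians stay near 0.

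The median difference over the 293 probes was 0.235 log10 units on slide 1 and 0.234 on slide 2, and slide 1 was the larger for 154 probes. Over the 40 probes detected on no wild-type array these medians were 0.357 and 0.253, and over the 35 detected on some they were 0.271 and 0.218. On each slide taken alone 197 of the 293 met the 1.5-fold limit, as did 648 of all 28948 detected probes. Z00048455-1 differed by 0.813 on slide 1 and 0.351 on slide 2. Compared with the 409 probes of wider spread, the evenly higher probes had smaller differences in the deposited values (median 1.68-fold against 2.16-fold), a similar wild-type SD (0.0690 against 0.0722 log10 units) and more calls by limma (194 of 293 against 175 of 409); the SD limit bears on each of these, and none was tested.

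A deposited value is a ratio, so an even ratio can come from 2 channels that move together. In Cy3 alone, centred on the median of each array, 291 of the 293 probes had a higher cKO mean, with a median difference of 0.224 log10 units, and 235 (80.2%) had no overlap between the genotypes, against 4.09% of the detected probes. The SD of the 4 cKO values in Cy3 alone was below 0.08 for 191 of the 293 probes (65.2%); for the other probes the evenness held for the ratio and not for the footpad channel. Of all probes detected on the cKO arrays, 69.5% had a Cy3 SD below 0.08, and of those whose ratio met the SD limit, 79.4%.

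The reference RNA was the same on every array, and its channel was nearly level for most of the set. The median Cy5 difference was -0.00245 log10 units, and 246 of the 293 probes lay within 0.05 of 0. By limma on Cy5 alone, 0 of 32691 probes were called different between cKO and wild-type arrays, with 529 at an unadjusted p under 0.05; of the 283 evenly higher probes tested there, 12 were at an unadjusted p under 0.05. In 8 of the 293 probes (2.73%, against 0.947% of the detected probes) Cy5 differed by 0.2 log10 units or more, 4 of them upward and 4 downward; these 8 were picked for their values.

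In the 4 upward probes both channels had higher means on the cKO arrays. For Z00009839-1 the centred Cy3 values on the wild-type arrays were -1.40, -1.17, -1.41 and -1.29, and those on the cKO arrays 0.537, 1.31, 0.671 and 1.08. Its Cy5 values on the wild-type arrays were -1.18, -1.33, -1.08 and -1.20, and those on the cKO arrays -0.844, -0.240, -0.743 and -0.371. The 4 cKO footpads thus differed in Cy3 by an SD of 0.359, with replicates 2 and 4 the brightest. In Cy5 they differed by an SD of 0.290 in the same order, so their deposited ratio met the SD limit at 0.0751. This evenness did not hold under the other processing. The SD of the 4 cKO ratios after normexp and loess was 0.812 on the log2 scale, over the limit, against 0.155 in wild type. It was the largest cKO SD of any evenly higher probe after that processing. Cy5 was well above background on 0 wild-type and 4 cKO arrays for this probe.

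Z00025446-1 showed the same course: its centred Cy3 values in cKO were 1.21, 1.70, 1.45 and 2.25 and its Cy5 values 0.468, 0.875, 0.655 and 1.45, while the SD of the ratio was 0.0367. The cKO footpads therefore stood far apart in Cy3, with an SD of 0.446, and the Cy5 mean was 4.44-fold higher on cKO than on wild-type arrays, or 2.82-fold without cKO replicate 4. Z00048455-1 had a Cy5 mean 2.97-fold higher on cKO arrays beside a Cy3 mean 11.2-fold higher. For Z00062579-1 these were 1.68-fold and 16.4-fold, the latter against wild-type spots of which 1 of 4 was well above background, and without that array, replicate 1, the Cy3 ratio was 30.9-fold.

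In 3 of the 4 downward probes the mean difference of the ratio lay in Cy5 and not in Cy3. For Z00023360-1 the cKO minus wild-type difference was -0.0313 log10 units in Cy3 and -0.231 in Cy5. For Z00023962-1 it was -0.0704 in Cy3 and -0.292 in Cy5, but Cy5 was well above background on 1 wild-type and 0 cKO arrays, and without wild-type replicate 4 the differences were 0.0069 and -0.0991. Z00062389-1 differed by 0.287 in Cy3 and by -0.201 in Cy5, with Cy5 well above background on 0 of the 8 arrays and Cy3 on 0 of the 4 wild-type arrays. For Z00028670-1 the mean differences were 0.002 in Cy3 and -0.293 in Cy5, and both channels were low on cKO replicate 4: its centred Cy3 values in cKO were 0.633, 0.653, 0.611 and -0.513 and its Cy5 values 0.415, 0.427, 0.399 and -0.749. On the other 3 cKO arrays its Cy3 was above all wild-type values, which were 0.353, 0.435, 0.247 and 0.342. Without cKO replicate 4 the differences were 0.288 in Cy3 and -0.00265 in Cy5. Its deposited ratio stayed even, at 2.89, 2.90, 2.89 and 2.91 in cKO against 2.60, 2.60, 2.54 and 2.65 in wild type.

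The reference channel also gives the direction in which each transcript departed from a common mouse RNA. In wild-type footpads limma called 191 of the 293 probes lower than the reference (65.2%), where 37.8% of all tested probes were called lower, and 60 higher (20.5%), where 45.3% of all were. Of the 409 probes over the SD limit, 59.7% were called lower and 17.6% higher. Low wild-type values help a probe to meet the rule, so these counts are a description, and dye and RNA source cannot be told apart without a dye swap. Over the 293 probes the median log2 ratio to the reference was -0.50 for wild type and -0.03 for cKO. Over all tested probes these medians were 0.05 and 0.06.

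By their means, 152 of the 293 probes were below the reference in both genotypes, 78 were above it in both and 63 were below it in wild type and above it in cKO. Z00007723-1 was one of the crossing probes, at -0.99 in wild type and 1.00 in cKO on the log2 scale. Z00071540-1 also crossed, from -0.31 to 3.15, while Z00048455-1 was above the reference in both, at 2.40 and 4.78. The lowest ratio to the reference belonged to Z00023574-1, at -4.43 in wild type and -3.51 in cKO, and the highest in wild type to Z00071804-1, at 3.51.

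**Figure D5:**
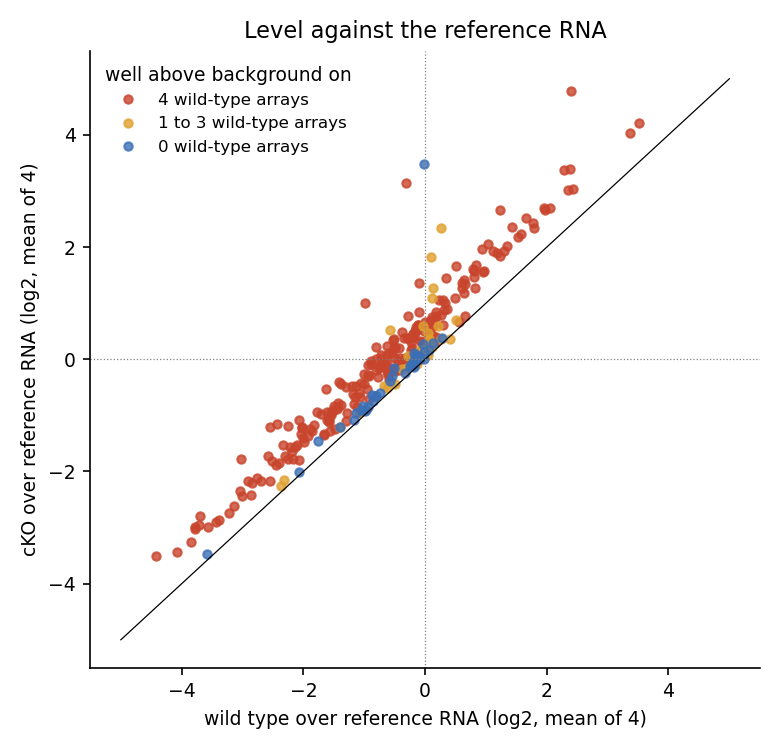
Mean log2 ratio of footpad RNA to reference RNA over 4 wild-type arrays (horizontal) and 4 cKO arrays (vertical) for the 293 probes, coloured by the number of wild-type arrays well above background; the line marks equal ratios. 1 point lies below the line, most lie under 0 on the horizontal axis, and 63 lie left of 0 and above 0.

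Some evenly higher probes measured the same sequence, so the 293 are not independent of each other. Counting a shared stretch of at least 20 bases, 13 pairs of probes held a member, and 4 pairs consisted of 2 members. Z00001969-1 and Z00060840-1, printed above, share 41 bases. Z00001969-1 had wild-type values of 3.05, 3.03, 3.01 and 3.02 and cKO values of 3.41, 3.50, 3.39 and 3.47, and Z00060840-1 had wild-type values of 3.20, 3.18, 3.19 and 3.18 and cKO values of 3.58, 3.65, 3.55 and 3.64. The differences were 2.59-fold and 2.63-fold, and both probes had the same order of the cKO footpads, with replicate 2 highest and replicate 3 lowest.

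Z00049101-1 and Z00054196-1 share 58 of their 60 bases, and their differences were 2.11-fold and 1.92-fold. Z00049101-1 had wild-type values of 2.93, 3.10, 3.08 and 3.28 and Z00054196-1 of 3.18, 3.14, 3.09 and 3.25, so the lowest wild-type array was replicate 1 for the first probe and replicate 3 for the second. In cKO they read 3.44, 3.42, 3.35 and 3.46 for the first and 3.44, 3.45, 3.36 and 3.55 for the second. The other pairs of members were Z00043703-1 with Z00074937-1 (2.42-fold and 2.26-fold) and Z00071847-1 with Z00073883-1 (1.75-fold and 1.80-fold).

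In the other 9 pairs the partner was outside the set, and in 7 of these the partner was also higher in cKO by its mean. The 7 include Z00024383-1 and Z00073029-1, partners of Z00077293-1, each detected on 1 cKO array and 0 wild-type arrays. Their genotypes overlapped in the deposited values, as did those of Z00054494-1, so for these partners the direction of the deposited mean says little. Over all probes detected on the cKO arrays the median deposited ratio was 0.990. Z00060369-1, partner of Z00036214-1, differed 2.23-fold against 2.32-fold and missed only the SD limit, at 0.0999. Other partners departed from the member in the deposited ratio: Z00054661-1 had a ratio of 0.877 where Z00052260-1, which no wild-type array detected, had 2.27. After normexp and loess these ratios were 0.968 and 1.11. In Cy3 alone Z00054661-1 differed by 0.0108 log10 units with overlap between the genotypes, and Z00052260-1 by 0.496 without overlap. The part of the background treatment in this departure was not tested. Z00055961-1, at 1.53-fold, shares bases with Z00054494-1 and Z00073001-1, which had ratios of 1.07 and 0.934 and Cy5 that was higher on cKO arrays. In Cy3 alone these 2 partners had no overlap and were higher in cKO by 0.275 and 0.294 log10 units, beside 0.214 for Z00055961-1. After normexp and loess the 3 probes were at 1.58, 1.19 and 1.14.

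What the probes share beyond the rule was looked for in their letters and in their place on the array. The letters AATAAA, the common polyadenylation signal that lies near the 3′ end of most messenger RNAs, occurred in 36 of the 293 probes (12.3%), in 14.7% of the 218 measured in all wild-type footpads, in 9.78% of the 409 probes over the SD limit, in 7.56% of all probes detected on the cKO arrays and in 6.93% of the whole table. The reverse complement TTTATT was found in 1.71% of the set and 3.02% of the detected probes. In the set AATAAA began at a median of base 42 of 60, counted from 1 at the first base, as it did in the detected probes. The variant signal ATTAAA occurred in 4.10% against 3.24% of the detected probes, and the letters ATTTA, found in many short-lived messenger RNAs, in 8.53% against 6.85%.

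The median share of G and C was 43.3% in the set and 45% in the detected probes. Probes with under 40% made up 32.8% of the set and 26.8% of the detected probes, and those with 50% or more made up 23.5% and 30.01%. On the array the set was spread over rows and columns, with 22.5% to 28.3% of its probes in each of 4 equal ranges of either. No member shared 25 bases with any of the 32851 promoter windows of the reference (RefSeq, GRCm38.p6). Of all 41999 probes 379 did, so small a share that the absence among the members is not read as a trait of the set. These matches are descriptions of letters, and none was tested for a relation to the genotype.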

How the data were processed

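RNA of 4 wild-type and 4 Foxc1 cKO footpad samples was measured on 8 two-colour arrays. Per the file headers, each spot's linear intensity was extracted with Agilent Feature Extraction (version 9.5.1.1) for both channels, Cy3 and Cy5, and the flags well above background and saturated come from the same deposited files. The deposited table holds log10 values. Compared with the scanner signals, a value was the log10 ratio of processed Cy3 over Cy5 with the probe's average log10 Cy5 added back, to within 0.000165, so higher means more Cy3; its column medians ran from 2.395 to 2.406. The members, lists and tests were chosen with earlier results of these data known.

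Spots of one probe were averaged and control spots left out. For the fits, normexp (offset 50) and loess gave log2 ratios from the deposited intensities, and probes detected in Cy3 (flag well above background) on 4 or more of the 8 arrays were tested two-sided with limma 3.58.1 (R 4.3.3; lmFit, eBayes) and Benjamini-Hochberg adjustment. Cy5 alone was tested after normexp and quantile normalization. The number of arrays limits the precision. The probes named were the 12 largest differences, the 6 smallest cKO SDs and the 3 nearest each limit on either side; 1 of the 12 is not reported here, and others were chosen after their values were seen. Tests on gene lists and cell type markers needed gene names and were not run. No 2 arrays were identical. Alternatives changed the limits, the source of the values, the background correction, the normalization, the filter, the variance model, a slide or replicate block and the arrays used. Tables and plots were made in Python 3.11.15 with matplotlib 3.10.9, pandas 2.3.3 and numpy 2.4.6.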

Additional observations from a re-analysis of the deposited data

Results flagged for a closer look

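Of the 42 groups of 4 arrays examined for a value far from the others (wild type and cKO of 21 named probes), 1 stood out. The rule and the choice of named probes used these same values, so the usual chance share of 1 in 20 does not apply to them. In Z00032988-1, wild-type replicate 4 had a deposited value of 2.29, below the other wild-type arrays, which ranged from 2.505 to 2.514. Its gap to the nearest array was 0.960 of the group's whole range, above Dixon's critical value for 4 samples.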

How the results depend on the processing

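The number of probes meeting the rule was 293. It was 181 with an SD limit of 0.06, 702 with no SD limit, 62 with a 2-fold difference and 181 after normexp and loess. Leaving out 1 array in turn gave 316 to 422, of which 230 to 277 were among the 293. The median difference of 0.225 log10 units was 0.171 after normexp and loess and 0.2195 to 0.2357 without 1 array. The 677 limma calls over all probes became 301 to 575 without 1 array, and the 194 among the evenly higher probes 125 to 165. With the replicate number as a block these counts were 667 and 171. Deviations from the group mean correlated at 0.212, 0.188, 0.0891 and 0.421 between the 2 genotypes' arrays of the same number. For 7 of 8 arrays, the array of the other genotype with the highest such correlation had the same number. The main fit nevertheless did not take the numbers as pairs. The other settings changed no count by over 1.5 times, but the rule applied to Cy3 alone gave 244 probes of which only 147 were among the 293. Single-channel values without 1 array were added after seeing the data. For 21 named probes, 193 of 210 values under other settings moved by less than 1 SD, 17 moved by more and 0 changed direction. All 17 came from changes of processing: 12 of 21 after normexp and loess and 5 of 21 in Cy3 alone. The other values were mostly those without 1 array, which all moved by less than 1 SD. These tell little, because leaving out 1 array moves a group mean by less than the group's SD. Nor can it reverse a probe chosen for no overlap between the genotypes. Signal over background limits the 35 and 40 probes detected on some or none of the wild-type arrays. Gene names and the tests that need them were not analysed here.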
